A study of Homo sapiens with 4 samples.

Results

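The intermediate filament genes KRT7, KRT8, KRT18, KRT19, KRT80, VIM, NES, LMNA, LMNB1 and LMNB2 were read from a ribosome profiling table of PANC-1 cells. These 10 listed genes were all found by Ensembl identifier among the 20307 genes of the table. PANC-1 is an established human pancreatic ductal adenocarcinoma line. The study asked which genes FBXO32, an F-box protein that selects substrates for a ubiquitin ligase, regulates in translation. There were 2 negative control and 2 FBXO32-depleted libraries, all of PANC-1 cells grown to 80 to 90% confluency and treated with 100 μg/mL cycloheximide for 2 min, which arrests ribosomes on the mRNA. The level of a gene is its TPM, the length-scaled share of a library's footprints. How FBXO32 was depleted, and whether the depleted cells were a clone, is not given in the sources used here. Libraries of a group are called bioreplicates with no word on separate cultures, so p-values measure only a spread between these libraries, which may be technical. For most tested genes that spread is pooled over genes and is not the gene's own. Footprints without matched RNA cannot separate mRNA level from translation, and in a bulk sample fewer cells of a kind cannot be told apart from less RNA per cell.

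Intermediate filaments are ropes of coiled-coil proteins that carry tension through the cytoplasm and under the nuclear membrane. A keratin filament needs an acidic type I and a basic type II partner, and KRT18 with KRT8 is the founding pair of simple epithelia, which duct cells complement with KRT19 and KRT7. Vimentin is the filament of mesenchymal cells and appears in carcinoma cells with mesenchymal traits, nestin marks progenitor cells, and the A-type and B-type lamins line the nuclear envelope and bind chromatin.

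The coding ends of the lamins are shown because they bear on what a gene level can show. Lamin A, LMNB1 and LMNB2 end in codons for a CaaX motif, in capitals, at which a farnesyl group is attached. LMNA also makes lamin C by splicing, with another end and no such motif, and the single LMNA value covers both proteins. The last 45 bases are given on the coding strand, stop codon included, from the longest annotated coding sequence in GENCODE release 29 on GRCh38.
lamin A: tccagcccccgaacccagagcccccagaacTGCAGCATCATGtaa
LMNB1: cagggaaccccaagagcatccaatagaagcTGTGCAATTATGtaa
LMNB2: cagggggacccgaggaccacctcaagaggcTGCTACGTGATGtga

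KRT8 and KRT18 were the members whose reads could least be assigned to a single gene. Of the 28-base windows of the KRT18 coding sequence, 77.1% were also present in annotated transcripts of other genes, and 72.9% of those of KRT8. Of the 72 genes sharing a KRT18 window 70 were pseudogenes, as were 53 of the 70 sharing a KRT8 window. The KRT18 window shared most widely is shown, on the coding strand, as an example of sequence that does not tell these genes apart.
KRT18: ctgaaggccagcttggagaacagcctga
It occurred in 25 other genes. Shared windows made up 18.5% of KRT19, 8.03% of KRT7 and 4.73% of KRT80, at most 0.946% of VIM and the B-type lamins, and 0 of LMNA and NES. The deposited table holds 0 rows for keratin pseudogenes, and how reads that match several genes were counted is not given in the sources used here, so the KRT8 and KRT18 levels are uncertain. The annotated KRT8 and KRT18 genes also overlap head to head by 1084 bases on opposite strands of chromosome 12 (GRCh38, 52948871 to 52949954), and whether the counting used strand is not given either.

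Before the members are described, 3 properties of the libraries touch them. FBXO32 itself had 18.1 and 21.6 TPM across the controls, against 14.3 and 12.9 TPM with FBXO32 depleted, which did not pass the test (log2 fold change -0.51 ± 0.45, SE; limma adjusted p = 0.429), so the depletion rests on the labels. Fold change fell with coding length over all tested genes, from a median of 0.59 on the log2 scale for genes of at most 500 nt to -1.08 for genes over 5000 nt. The controls also differed from each other along length. Control replicate 2 minus control replicate 1 had a median of 0.268 in the shortest of these bins and -0.527 in the longest. Depleted replicate 2 stood apart from depleted replicate 1 for most members, as given below. As for the cell label, 7 of 8 ductal epithelial markers were above 0, with a summed level of 136 to 159 TPM in every library and CFTR at 0. Single markers moved in opposite directions within that sum. SOX9 had 77.7 and 66.9 TPM across the controls, against 27.8 and 16.2 TPM with FBXO32 depleted, and was called lower. Of the 6 tested ductal markers, 3 were higher and 1 lower at an unadjusted limma p under 0.05, and 0 were called higher. Of 7 acinar markers 6 were at 0 in all libraries, with a summed level of 0 to 0.251 TPM, and endothelial and islet markers summed to at most 1.38 TPM. Of 6 leukocyte markers 4 were above 0, with PTPRC and CD3E at 0 throughout and a summed level of 9.4 and 5.02 TPM across the controls, against 2.22 and 1.47 TPM with FBXO32 depleted. Most of that sum in the controls was LYZ, encoding lysozyme, which had 8.52 and 3.47 TPM there, against 0.632 and a listed 0 TPM in the depleted libraries, and was called lower (limma adjusted p = 9.5e-06). All 7 fibroblast markers were above 0, but only 2, COL1A1 and COL3A1, reached 1 TPM in any library. The 7 summed to 124 and 102 TPM across the controls, against 71.0 and 70.0 TPM with FBXO32 depleted, 1 being called higher and 1 lower. Most of that sum in the controls was COL1A1, at 111 and 86.5 TPM. The part of these marker levels in the members' results was not tested.

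In the control cells VIM and the KRT8 and KRT18 pair led the family. VIM had a mean of 1795 ± 59.1 TPM (SD, n = 2) and lay at rank 78 among the 14153 genes above 0 in the controls. KRT18 followed with 1175 ± 108 TPM, KRT8 with 490.8 ± 21.0 TPM and LMNA with 374.2 ± 20.0 TPM. Footprints of a mesenchymal filament gene and of the simple epithelial pair were thus both listed at high level in the same bulk samples, the pair's levels being uncertain. KRT80 (101.4 ± 4.37 TPM), LMNB2 (98.1 ± 18.1 TPM) and LMNB1 (74.2 ± 3.12 TPM) formed a middle group, within which the KRT80 and LMNB2 ranges overlapped. KRT19 was lower, at 20.8 ± 3.30 TPM. KRT7, a usual marker of pancreatic ducts, had only 1.26 ± 0.54 TPM and NES 0.92 ± 0.43 TPM, and the ranges of these last genes overlapped. All other neighbours in this order had separate ranges in the controls. In the depleted libraries the same order held except that LMNB1 and LMNB2 changed places with overlapping ranges, and the wider spread there also made the ranges of VIM and KRT18, of KRT8 and LMNA, of KRT80 and LMNB1, and of LMNB2 and KRT19 overlap.

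**Figure D1:**
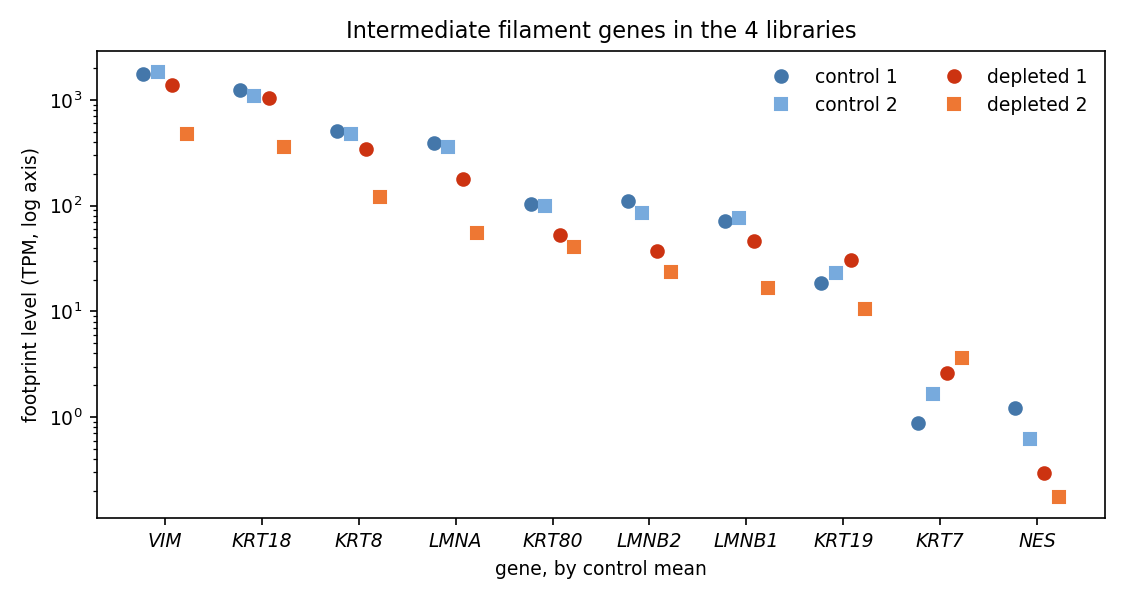
Footprint level in TPM on a log axis of the 10 intermediate filament genes, 1 point per library, ordered by control mean. Depleted replicate 2 is the lowest library for every gene but KRT7, whose level is highest there.

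After FBXO32 depletion 7 of the 9 tested members were lower, 0 were higher and 2 did not pass. These were KRT8, KRT18, KRT80, VIM, LMNA, LMNB1 and LMNB2 (limma on log2(TPM + 1), Benjamini-Hochberg adjusted p under 0.05 over 11623 genes). Over all tested genes 19.5% were called lower and 6.21% higher, and 16.3% and 10.7% after median-ratio scaling. That scaling moved the median over all genes from -0.16 to 0.02 on the log2 scale. The all-gene share called lower was 12.3% once the coding-length trend was removed and 8.77% when low values were kept. This share also fell when depleted replicate 2 or either control was left out, and rose without depleted replicate 1. With depleted replicate 2 left out, the all-gene median was -0.01 on the log2 scale. The member counts below are to be read against these falls. The median log2 fold change of the tested members was -1.15. At an unadjusted p under 0.05 also 0 members were higher and 7 lower. The all-gene share at that unadjusted threshold was not computed, here or for the other unadjusted counts, so they have no background to be read against. NES did not reach 1 TPM in at least 2 libraries and was not tested. The count of 7 fell to 4 with median-ratio scaling, to 3 with the coding-length trend removed and to 1 without depleted replicate 2 or without control replicate 1. It was 3 without control replicate 2 and 2 without the filter on low values.

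Among the type II keratins, KRT8 and KRT80 were lower and KRT7 was not called. KRT8, the type II partner of the simple epithelial pair (ENSG00000170421, minus strand of GRCh38 chromosome 12, 52897187 to 52949954), had 505.6 and 476.0 TPM across the controls, against 343.7 and 119.8 TPM with FBXO32 depleted. The depleted libraries were both below the control range and far apart from each other. KRT8 was 2.41-fold lower, with a log2 fold change of -1.27 ± 0.38 (SE; limma adjusted p = 0.00574). The value was -0.51 without depleted replicate 2 (limma adjusted p = 0.519), -1.22 without control replicate 1 (0.116) and -1.27 without the filter on low values (0.123). KRT80, a keratin of the cell periphery in several epithelia (ENSG00000167767, chromosome 12, 52168996 to 52192000, minus strand), had 104.5 and 98.3 TPM across the controls, against 52.5 and 40.6 TPM with FBXO32 depleted. Here both depleted libraries were close to each other and well below the controls. The log2 fold change of KRT80 was -1.12 ± 0.41 (limma adjusted p = 0.0280), and its call ended in 6 of 13 alternatives, among them each control left out in turn, with values from -1.30 to -0.84 over all 13. KRT7 (ENSG00000135480, chromosome 12, 52232520 to 52252186, plus strand) had 0.885 and 1.64 TPM across the controls, against 2.62 and 3.60 TPM with FBXO32 depleted. KRT7 was the member whose depleted values both lay above the controls, at a level near 1 TPM. Its log2 fold change of 0.87 ± 0.47 did not pass (limma adjusted p = 0.157), with a 95% confidence interval from -0.04 to 1.78. Over all tested genes 26.8% had depleted values wholly above the controls and 37.6% wholly below.

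Of the type I keratins KRT18 was lower, narrowly, and KRT19 was not called. KRT18, the partner of KRT8 (ENSG00000111057, chromosome 12, 52948871 to 52952901, plus strand), had 1251 and 1098 TPM across the controls, against 1035 and 362.5 TPM with FBXO32 depleted. Depleted replicate 1 lay just below the controls and depleted replicate 2 far below them. The fold change of KRT18 on the log2 scale was -0.93 ± 0.36 (limma adjusted p = 0.0402). Its call ended in 8 of 13 alternatives, among them the replicate block (limma adjusted p = 0.0786), median-ratio scaling (0.176) and the fit without depleted replicate 2, where the value was -0.18 (0.844). KRT19, the smallest keratin and a duct marker (ENSG00000171345, chromosome 17, 41523617 to 41528308, minus strand), had 18.5 and 23.1 TPM across the controls, against 30.5 and 10.4 TPM with FBXO32 depleted. The depleted libraries lay on either side of the controls. Its log2 fold change of -0.19 ± 0.45 (limma adjusted p = 0.794) had a 95% confidence interval from -1.07 to 0.69, and it turned to 0.54 without depleted replicate 2.

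VIM was lower and NES was near the limit of the table. Vimentin (ENSG00000026025, chromosome 10, 17228259 to 17237593, plus strand) had 1754 and 1837 TPM across the controls, against 1379.9 and 476.8 TPM with FBXO32 depleted. The controls were close, and the depleted libraries lay below them at very different levels. The log2 fold change of VIM was -1.14 ± 0.35, or 2.21-fold lower (limma adjusted p = 0.00844). It was -0.38 without depleted replicate 2 (limma adjusted p = 0.639), and the call also ended without either control, with median-ratio scaling (0.0729), without the filter on low values and with the coding-length trend removed (0.0588). Nestin (ENSG00000132688, chromosome 1, 156668763 to 156677397, minus strand) had 1.23 and 0.621 TPM across the controls, against 0.296 and 0.177 TPM with FBXO32 depleted, values too low for the test.

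All 3 lamin genes were lower, and LMNA and LMNB2 kept their calls in 12 of 13 alternatives each. LMNA, the source of lamins A and C (ENSG00000160789, chromosome 1, 156082573 to 156140089, plus strand), had 388.4 and 360.1 TPM across the controls, against 177.9 and 55.6 TPM with FBXO32 depleted. Every depleted value was under the control range by a wide margin. The log2 fold change of LMNA was -1.90 ± 0.38, or 3.73-fold lower (limma adjusted p = 1.593e-05), and -1.07 without depleted replicate 2 (limma adjusted p = 0.11). LMNB2, a B-type lamin (ENSG00000176619, chromosome 19, 2427638 to 2456996, minus strand), had 110.9 and 85.3 TPM across the controls, against 37.6 and 23.5 TPM with FBXO32 depleted. Its depleted libraries were nearer to each other than those of LMNA. The log2 fold change of LMNB2 was -1.68 ± 0.41, or 3.20-fold lower (limma adjusted p = 0.000553), and it was the only member still called without depleted replicate 2 (-1.35, limma adjusted p = 0.034), while its call ended without control replicate 1 (0.0808). LMNB1, the other B-type lamin (ENSG00000113368, chromosome 5, 126776623 to 126837020, plus strand), had 72.0 and 76.4 TPM across the controls, against 46.6 and 16.5 TPM with FBXO32 depleted. The log2 fold change of LMNB1 was -1.38 ± 0.42 (limma adjusted p = 0.00684), and -0.66 without depleted replicate 2 (limma adjusted p = 0.4). Its call also ended without either control (0.105 and 0.0715), without the filter on low values and with the coding-length trend removed (0.0839).

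**Figure D2:**
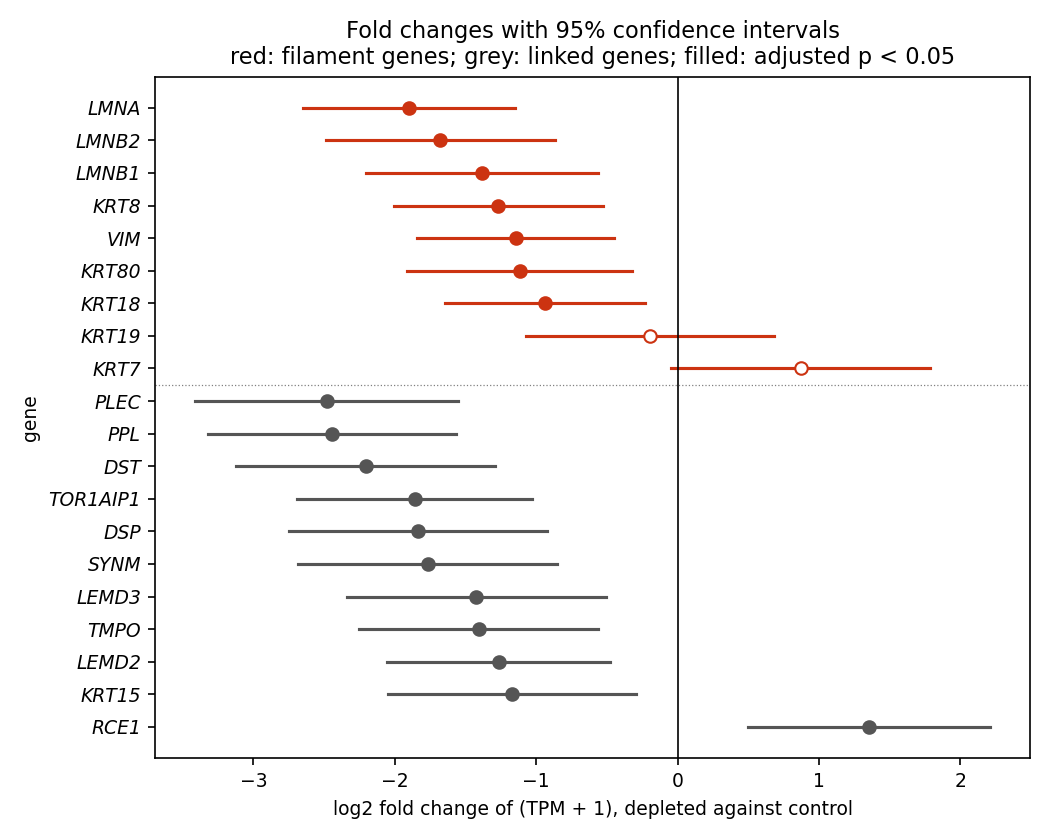
Log2 fold change of TPM + 1 between depleted and control libraries with its 95% confidence interval (limma) for the 9 tested filament genes in red and the named linked genes in grey; filled points passed the adjusted p threshold of 0.05. LMNA has the lowest value of the filament genes, at -1.90, and the intervals of KRT19 and KRT7 cross 0.

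The depleted libraries differed from each other, and by nearly the same amount for 6 members, of which KRT19 was not called and stood above both controls in depleted replicate 1. On the log2(TPM + 1) scale depleted replicate 2 was below depleted replicate 1 by a difference of -1.51 for KRT8, -1.51 for KRT18, -1.53 for VIM, -1.46 for KRT19, -1.45 for LMNB1 and -1.66 for LMNA. The median of this difference over all tested genes was -0.18, and it was -0.285 for genes with coding lengths of 1001 to 1500 nt and -0.335 for those of 1501 to 2000 nt. For KRT80 and LMNB2 the difference was smaller, at -0.36 and -0.65, and for KRT7 it was 0.35. As a share of the control mean, KRT18 stood at 88.1% in depleted replicate 1 and 30.9% in depleted replicate 2, VIM at 76.9% and 26.6%, and KRT8 at 70.0% and 24.4%. LMNB2 stood at 38.3% and 23.9% and KRT80 at 51.8% and 40.0%, so both were well under the control range in each depleted library. The LMNB2 difference of -0.65 was still larger than the median of -0.335 for its length bin. Between the controls the 7 called members differed by -0.38 to 0.08. For most tested genes limma used a spread pooled over genes, so the SEs above need not reflect how far these depleted libraries lay apart. The 10 genes together took 4207 and 4057 TPM across the controls, against 3107 and 1109 TPM with FBXO32 depleted. What sets depleted replicate 2 apart was not tested.

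**Figure D3:**
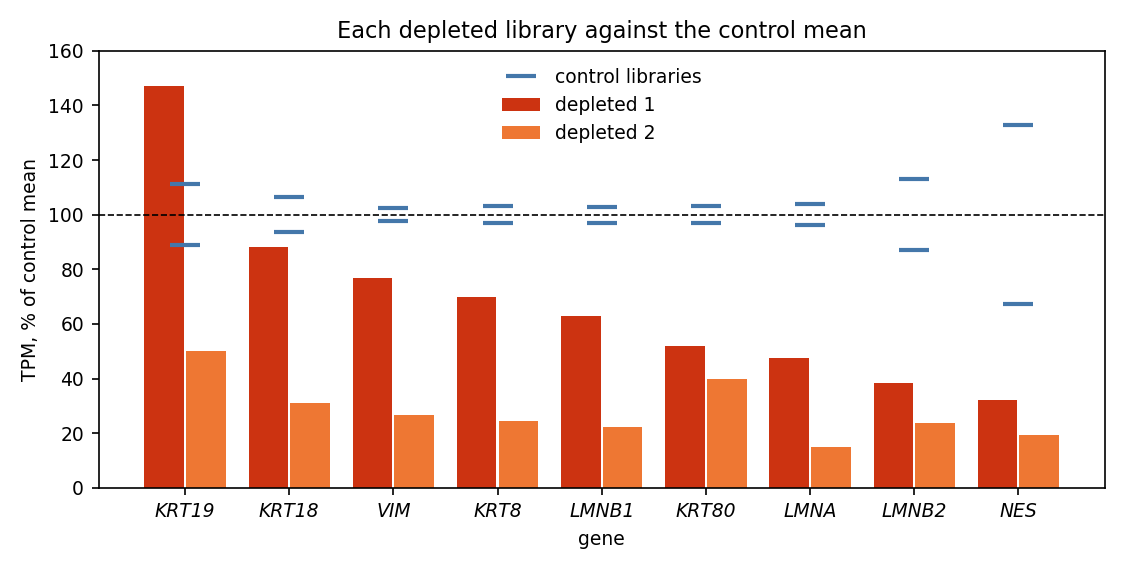
Level of each depleted library as a percentage of the control mean, with the control libraries as blue dashes, for all members except KRT7, which stood at 207% and 285%. KRT18, VIM and KRT8 are between 70.0% and 88.1% in depleted replicate 1 and between 24.4% and 30.9% in depleted replicate 2.

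Ratios within a library do not depend on its scaling, and TPM allows levels of different genes to be set side by side. They still carry the coding-length trend and, for KRT8 and KRT18, the windows shared with other genes. KRT8 (1533 nt) is longer than KRT18 (1290 nt). With the length trend removed their log2 fold changes were -0.89 and -0.695, from -1.27 and -0.93. KRT8 stood at 0.404 and 0.433 of KRT18 across the controls, against 0.332 and 0.331 with FBXO32 depleted. The partner ratio was therefore lower in both depleted libraries and almost the same in them, although KRT8 and KRT18 levels there differed by a log2 value of -1.51. The difference of the log2 ratio was -0.34 (exact permutation test, two-sided, p = 0.333, the smallest that 2 against 2 libraries allow). The 5 keratins together had 1.07 and 0.924 times the level of VIM across the controls, against 1.06 and 1.13 times with FBXO32 depleted, with overlapping groups (exact permutation test, two-sided, p = 0.667). LMNA had 2.12 and 2.23 times the summed level of LMNB1 and LMNB2 across the controls, against 2.11 and 1.39 times with FBXO32 depleted. Of this the fall was in depleted replicate 2, and without it the difference of the log2 ratio went from -0.34 to -0.04 (exact permutation test over all 4 libraries, two-sided, p = 0.333). The ratios of KRT19 to KRT18 and of KRT7 to KRT8 were not among those planned. Each was higher in both depleted libraries than in the controls. KRT19 itself was not called, KRT7 was near 1 TPM, and these ratios carry the lower and uncertain KRT18 and KRT8 levels. The ratio of KRT19 to KRT18 was 0.0147 and 0.0211 across the controls, against 0.0295 and 0.0288 with FBXO32 depleted. That of KRT7 to KRT8 went from 0.00175 and 0.00345 to 0.00762 and 0.0301. Neither pair overlapped between groups (exact permutation tests, two-sided, both p = 0.333), and 5 ratios were computed in all, each p being 0.667 or 0.333 before any adjustment.

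**Figure D4:**
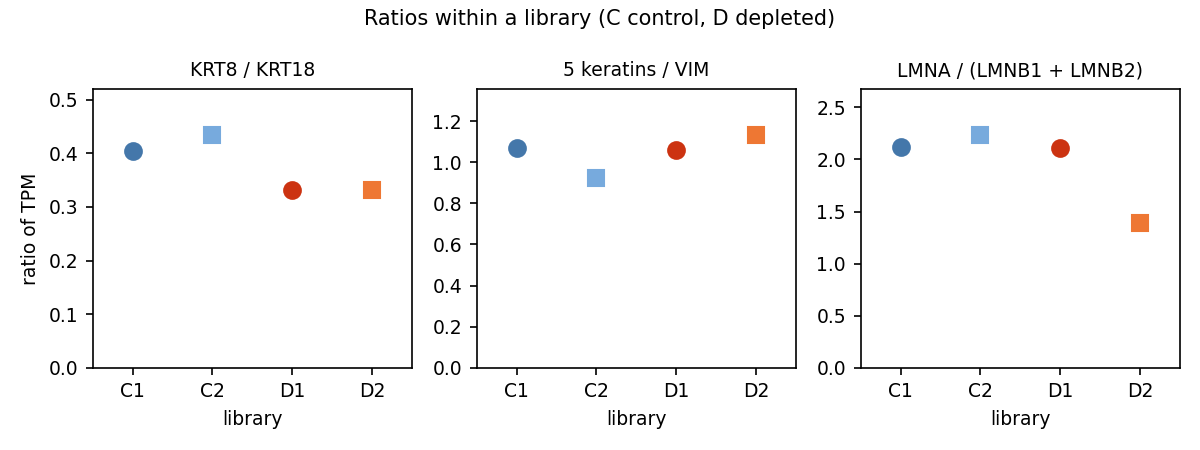
Ratios of TPM within each library (C control, D depleted) for KRT8 over KRT18, the 5 keratins over VIM, and LMNA over the sum of LMNB1 and LMNB2. The KRT8 to KRT18 ratio is 0.332 and 0.331 in the depleted libraries and the keratin to VIM ratio stays between 0.924 and 1.13.

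Of the remaining filament genes few were present. Of 27 other type I keratins 10 were above 0 in any library and 2 were tested. KRT15, a keratin of basal cells, had 3.43 and 1.22 TPM in the controls, and a listed 0 and 0.943 TPM in the depleted libraries (log2 fold change -1.17 ± 0.45, limma adjusted p = 0.0388), and lost its call in 6 of 10 alternatives. KRT10 did not pass. Of 23 other type II keratins 9 were above 0 and 1, KRT81, was tested. Its log2 fold change of 1.11 ± 0.47 did not pass (limma adjusted p = 0.0630; 1 higher and 0 lower at an unadjusted p under 0.05), and 69.6% of its 28-base windows lie in other genes. Of 11 further filament genes, 2 were tested and SYNM, which encodes synemin, a partner that copolymerises with vimentin, was lower, from 4.84 ± 0.61 to 0.73 ± 0.36 TPM (SD, n = 2; log2 fold change -1.77 ± 0.47, limma adjusted p = 0.00155). SYNM was no longer called after removal of the length trend (limma adjusted p = 0.204) and without depleted replicate 2 (0.0745).

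The plakins, giant proteins that tie filaments to junctions and to other filaments, were called lower in all 6 tested of 7 listed, but in only 2 of the 6 once the coding-length trend was removed. The median log2 fold change of the 6 was -2.02, against -0.16 over all tested genes. PLEC, encoding plectin, which crosslinks keratin and vimentin to actin and the nucleus, went from 23.5 and 12.2 TPM to 2.13 and 2.31 TPM (log2 fold change -2.48 ± 0.47, limma adjusted p = 4.3e-06). PPL, encoding periplakin, went from 63.7 and 32.2 TPM to 6.59 and 8.53 TPM (-2.45 ± 0.45). Unlike most filament genes, neither was lower in depleted replicate 2 than in depleted replicate 1. DSP, the desmosomal anchor of keratin, had log2 fold change -1.83 ± 0.47, and DST, or dystonin, -2.21 ± 0.47. DSP went from 4.85 and 4.45 TPM across the controls to 0.212 and 1.07 TPM, and DST from 29.7 and 13.6 TPM to 4.29 and 2.96 TPM. The remaining plakins were MACF1, which links microtubules to actin (-1.48 ± 0.46), and EVPL, or envoplakin, a partner of periplakin (-1.53 ± 0.46). MACF1 went from 29.8 and 12.1 TPM to 4.19 and 8.89 TPM, and EVPL from 4.48 and 2.62 TPM to 0.473 and 0.624 TPM. The controls of DST and MACF1 thus lay far apart, and the depleted levels of DSP and EVPL were near or below 1 TPM. These are among the longest coding sequences, with a median of 11332 nt in the list, and 46.6% of all tested genes over 5000 nt were called lower. After removal of the length trend PLEC and PPL were still called (-1.29 and -1.41, limma adjusted p = 0.0203 and 0.00865), while the calls of DST (0.0724), DSP (0.274), EVPL (0.486) and MACF1 (0.678) ended. The call of MACF1 also ended without the filter on low values (limma adjusted p = 0.109), and EVPL was not tested without control replicate 2. Without control replicate 1 the calls of DST (limma adjusted p = 0.0595) and MACF1 (0.434) also ended and EVPL was not tested. Without depleted replicate 1 those of DSP (0.0579), EVPL (0.0553) and MACF1 (0.127) ended, and EVPL was also lost without depleted replicate 2 (0.0701).

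Of 5 genes for enzymes that process the lamin CaaX end, 1 was higher, 0 were lower and 4 did not pass (limma; also 1 and 0 at an unadjusted p under 0.05), where 6.21% of all tested genes were called higher and 19.5% lower. The gene that was higher is RCE1, the protease that trims the motif after farnesylation. RCE1 had 17.7 and 15.8 TPM across the controls, against 43.7 and 45.1 TPM with FBXO32 depleted, with both groups tight and well apart. The fold change of RCE1 on the log2 scale was 1.35 ± 0.44 (limma adjusted p = 0.0117), and this call was lost without control replicate 1 (0.112), control replicate 2 (0.0921) or depleted replicate 2 (0.0509). ZMPSTE24, the protease that matures prelamin A, had a log2 fold change of 0.31 ± 0.41 and FNTA, a farnesyltransferase subunit, 0.39 ± 0.42. The other farnesyltransferase subunit, FNTB, shares its locus with a read-through gene, and its value of -0.88 ± 0.47 is uncertain.

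Of 17 tested genes listed as partners of the lamina and of the LINC complex, which couples lamins to the cytoskeleton, 4 were lower, 0 higher and 13 did not pass (at an unadjusted p under 0.05 also 4 and 0). The share of 23.5% called lower was near the 19.5% of all tested genes. The list also holds LMF2, better known as a lipase maturation factor of the endoplasmic reticulum, which did not pass (-0.24 ± 0.46). TOR1AIP1, a lamin-binding protein of the inner membrane that activates torsins, had 78.1 and 71.3 TPM across the controls, against 24.5 and 16.0 TPM with FBXO32 depleted. Its log2 fold change of -1.86 ± 0.43 (limma adjusted p = 0.000172) passed in all 13 alternatives. The others were TMPO, the lamin and chromatin binder LAP2 (-1.41 ± 0.43), LEMD3 (-1.42 ± 0.47) and LEMD2 (-1.27 ± 0.40), both LEM-domain proteins of the inner membrane. Each of these 3 calls ended without control replicate 1, without depleted replicate 2, without the filter on low values and with the coding-length trend removed, at limma adjusted p from 0.0631 to 0.456. EMD, or emerin, went from 350.3 ± 92.4 to 277.0 ± 4.34 TPM (limma adjusted p = 0.580). LBR, the lamin B receptor, had a log2 fold change of -0.25 ± 0.45, and the LINC proteins SUN1 and SUN2 had -0.64 ± 0.40 and -0.54 ± 0.46. BANF1, the short chromatin-bridging protein, had 0.68 ± 0.36 and did not pass (limma adjusted p = 0.151).

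The tested members had coding lengths of 1200 to 1992 nt. Among tested genes 15.0% of those from 1001 to 1500 nt and 20.6% of those from 1501 to 2000 nt were called lower, with median log2 fold changes of -0.14 and -0.34. The longer members, LMNA (1992 nt), LMNB2 (1860 nt) and LMNB1 (1758 nt), had the lowest fold changes of the family. With the length trend removed KRT8 (-0.89, limma adjusted p = 0.0493), LMNA (-1.33, 0.00931) and LMNB2 (-1.15, 0.0163) were called.

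**Figure D5:**
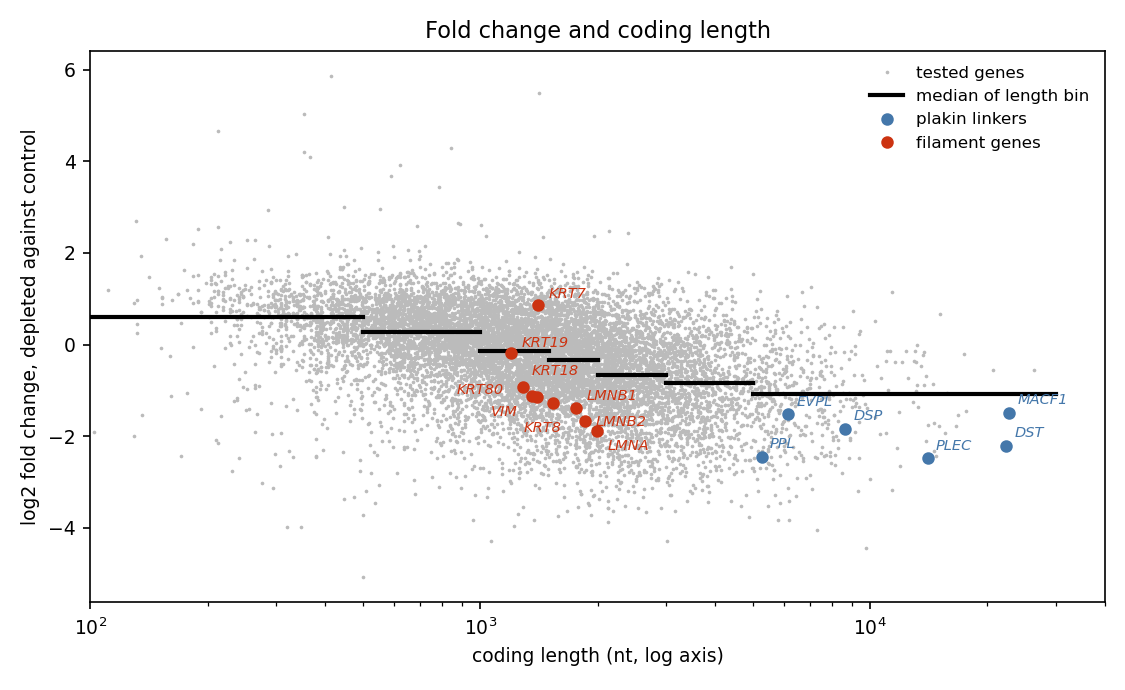
Log2 fold change of depleted against control libraries for all tested genes against coding length on a log axis (grey), with the median of each length bin as a black bar, the filament genes in red and the plakins in blue. The called filament genes lie below the medians of -0.14 and -0.34 of their length bins, and KRT7 lies above.

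For the lead gene of each class, the genes with the most similar profile over the 4 libraries were sought among 8692 others, by the root mean square distance of centred log2 levels. The nearest to KRT8 were CAMK2D, a calcium-dependent kinase gene (distance 0.023), and EXOC7, an exocyst subunit gene (0.038). The nearest to VIM were TAOK3, a kinase gene (0.05), and ANXA1, encoding the membrane-binding annexin A1 (0.052). ANXA1 had 304 and 310 TPM across the controls, against 247 and 88.2 TPM with FBXO32 depleted. The nearest to LMNA were MCM4, a replicative helicase gene (0.06), and PFKP, encoding a phosphofructokinase (0.082). With 4 libraries such a match is a description only.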

How the data were processed

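Ribosome-protected fragments of 4 PANC-1 libraries were recovered after digestion for 45 min and by size over 17 nt, per the labels' protocols. The authors deposited 1 TPM value per gene and library, per the file headers. GRCh38 and the tools Bowtie2 2.2.8, RSEM, STAR, fastp and DESeq2 appear, without roles, in the submitters' processing notes. TPM keeps no depth, so the depth is unknown and counting error could not be computed. Columns marked NS were read as negative control and KO as depleted, from their names. Ensembl identifiers were matched to symbols (19702 of 20307 genes), positions and coding sequences from GENCODE 29.

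The 11623 genes that reached 1 TPM in 2 or more libraries were tested as log2(TPM + 1) with limma 3.58.1 in R 4.3.3 (trend, robust), which gave 10272 of them the pooled spread alone. Benjamini-Hochberg adjustment ran over these genes, with 0.05 as the threshold. The test was checked on simulated data. The members and lists were chosen with earlier results of these data known. Named are all members, FBXO32, PLEC, DSP, up to 4 called genes with the smallest p of each linked list and direction, and the 2 nearest profiles of KRT8, VIM and LMNA; other list members were named after their values were seen. Shared windows were 28-base matches on the transcript strand.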

Additional observations from a re-analysis of the deposited data

How the results depend on the processing

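Besides the 7 members called lower, counts were 4 with median-ratio scaling, 2 without the filter on low values and 3 with the coding-length trend removed, and 1 to 7 when each library was left out in turn. For the linked genes, 12 were lower, with 7 without the filter, 3 with the coding-length trend removed and 4 to 9 with a library left out. Linked genes called higher numbered 1, with 2 under median-ratio scaling, without the variance trend or with the length trend removed, and 0 to 1 with a library left out. Tested linked genes numbered 33, with 56 without the filter and 33 with the length trend removed. Over all tested genes 19.5% were called lower, 16.3% with median-ratio scaling, 8.77% without the filter and 12.3% with the length trend removed. The share called higher was 6.21%, with 10.7% under median-ratio scaling, 5.64% without the variance trend and 9.35% with the length trend removed. The log2 fold change of KRT19, -0.19, ran from -0.923 without depleted replicate 1 to 0.54 without depleted replicate 2. The cause of these changes was not tested. Among the members' fold changes under the alternatives, 85 kept direction and side of the threshold, 30 kept direction and lost the call, and 1 reversed. The 85 include 12 each for KRT7 and KRT19, which had no call to lose, so all 30 losses were among the 7 called members. Same-numbered libraries did not deviate together (correlation -0.0488 over genes). With the replicate block 6 members were lower, KRT18 being lost. Fits that leave out a library have 1 library in a group, assumed to vary like the others. With the depth unknown, how far counting error reaches genes near 1 TPM, such as KRT7 and NES, is not known.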

Other observations

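Of 8 ductal epithelial markers 6 were tested, of which 1 was called lower and 0 higher (3 higher and 1 lower at an unadjusted p under 0.05), and of 7 fibroblast markers 2 were tested, of which 1 was called lower and 1 higher (limma; 19.5% of all tested genes were called lower and 6.21% higher). The ductal marker that was lower is SOX9, a duct transcription factor, with 77.7 and 66.9 TPM across the controls, against 27.8 and 16.2 TPM with FBXO32 depleted (log2 fold change -1.71 ± 0.42, limma adjusted p = 0.000611). EPCAM, an epithelial adhesion molecule, had 1.87 and 3.64 TPM across the controls, against 7.68 and 6.09 TPM with FBXO32 depleted, and CDH1, or E-cadherin, 1.73 and 2.78 against 5.52 and 4.17 TPM. Neither passed the test (limma adjusted p = 0.0750 and 0.182). The fibrillar collagens went opposite ways: COL1A1 fell from 98.5 ± 17.0 to 37.1 ± 2.61 TPM (SD, n = 2) and COL3A1 rose from 13.6 ± 0.84 to 33.1 ± 3.04 TPM (limma adjusted p = 0.00578 and 0.0280). DCN and LUM, fibroblast markers, stayed under 1 TPM in every library.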
